A study of Homo sapiens with 2 samples.

Results

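The proteasome breaks down proteins that carry ubiquitin chains. Its barrel-shaped core particle is built of alpha rings, which gate the entry, around beta rings, which hold the catalytic sites, and its regulatory particle, made of a base and a lid, captures, strips and unfolds the substrates. Constitutive subunits are made in nearly all cells, in contrast to the inducible subunits of the immunoproteasome, and cancer cells with a high load of misfolded protein lean on them. Their genes are often transcribed together, and NFE2L1, also called NRF1, is known to raise many of them when the proteasome is inhibited.

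The genes described here are PSMA1 to PSMA8 and PSMB1 to PSMB7 of the core particle, and PSMC1 to PSMC6 and PSMD1 to PSMD14 of the regulatory particle. They were chosen by gene name among the gene probes of the chip that were not flagged as poor, and not by their values. All 35 were found, 15 of the core and 20 of the regulatory particle, of 19372 named genes on the chip. Each had 1 probe, and each probe was brighter than 95% of the blank spots on both arrays, so no member was lost to a filter on low values.

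MDA-MB-231 cells irradiated with 2 Gy a day for 4 days (2 Gy x 4) were compared with untreated cells (0 Gy). This long-established cell line came from a human breast cancer without hormone receptors or HER2 amplification. Both cultures grew on Matrigel as a 3D laminin-rich extracellular matrix (lrECM), and each condition gave total RNA for 1 array. The amplified RNA carried the dye Cy5 and was bound to a Toray 3D-Gene Human oligo chip with 1 colour, on which the brightness of a spot reflects the RNA bound to its probe. Without replicate arrays no test could be made, and each ratio below is 2 Gy x 4 over 0 Gy for these 2 arrays only. In bulk RNA, a change in the share of cells that express a gene and a change in the RNA per cell cannot be told apart.

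The median gene probe had a spot median of 51.9 on the 2 Gy x 4 array and 57.9 on the 0 Gy array, and the 95th percentile of the blank spots was 16.0 on the 2 Gy x 4 array and 14.2 on the 0 Gy array. Of the mesenchymal markers, the brightest VIM (vimentin) probe had 26732 in 2 Gy x 4 cells and 28208 in 0 Gy cells, while the probes of the hormone receptor genes ESR1 and PGR did not lie above the blank spots on both arrays. The luminal gene GATA3 was detected, at 97.3 in 2 Gy x 4 cells and 88.7 in 0 Gy cells, as were the epithelial and basal genes EPCAM, CDH1, KRT5, KRT14, KRT18 and KRT19. The brightest KRT18 probe had 5415 in 2 Gy x 4 cells and 6416 in 0 Gy cells. CDH2, another mesenchymal marker, was not above the blank spots on both arrays either, and KRT8 was not analysed here. Of the 18549 genes detected on at least 1 array, 54.4% had a normalized ratio above 1, and the median ratio was 1.01. Of the 3750 genes with spots over 300 on both arrays, as bright as 34 of the 35 proteasome genes, 56.6% lay above 1 and the median ratio was 1.03. The median absolute deviation of the log2 ratios over the detected genes was 0.078.

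After normalization between the arrays, 30 of the 35 proteasome genes had a ratio above 1, and the median ratio was 1.12. PSMB6 and PSMD3 were at least 1.5-fold higher in 2 Gy x 4 cells, 2 of 35 genes, where 0.286% of all detected genes and 0.613% of the brighter genes were. No proteasome gene was at least 1.5-fold lower, as were 0.965% of all detected genes and 2.21% of the brighter genes. At a smaller threshold, 10 of 35 proteasome genes were at least 25% higher, against 3.03% of all detected and 8% of the brighter genes. None was lower by that factor, against 4.57% of all detected and 9.07% of the brighter genes. All these shares take in every column of the chip, also the last 26, where ratios ran lower and no proteasome gene lies. Shares matched for column were not counted. The differences were small, from a ratio of 0.841 for PSMD2 to 1.59 for PSMB6. They came with a pattern of place on the chip, which is described after the genes themselves.

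**Figure D1:**
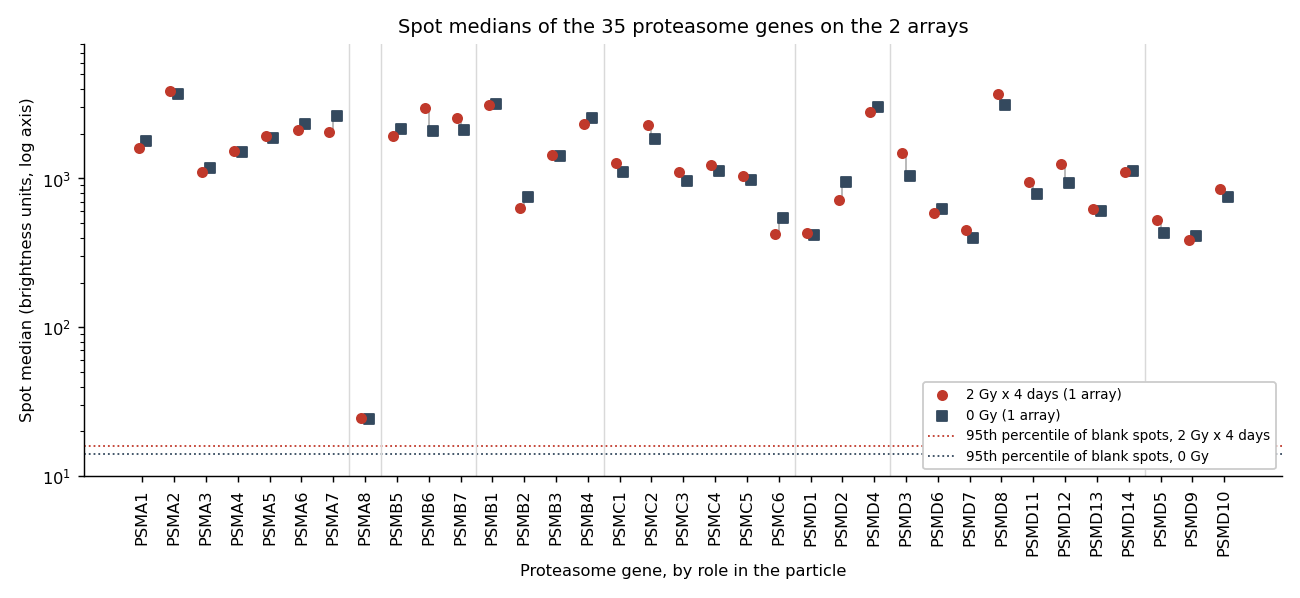
Spot median of each proteasome gene on the 2 Gy x 4 array (red circles) and the 0 Gy array (dark squares), 1 array each, on a log axis in brightness units, before any normalization. Vertical lines part the groups of subunits, and all genes but PSMA8 lie between 388 and 3896 on both arrays, far above the 95th percentiles of the blank spots (dotted lines, 16.0 for 2 Gy x 4 and 14.2 for 0 Gy).

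Before normalization, the spot median was higher on the 2 Gy x 4 array for 21 of the 35 genes, 7 of 15 in the core and 14 of 20 in the regulatory particle. The 2 Gy x 4 array was the dimmer of the arrays as a whole, with a median spot ratio of 0.958 over the detected genes and 0.932 over the brighter ones. The normalized ratios below are relative to that shift.

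The alpha ring genes differed little between the conditions, with a median ratio of 1.03 over PSMA1 to PSMA7. PSMA7 was the lowest of them and the third lowest of all members, with a spot median of 2058 in 2 Gy x 4 cells and 2627 in 0 Gy cells. Its normalized ratio was 0.873. PSMA2 was the highest of the ring, at 3896 in 2 Gy x 4 cells and 3699 in 0 Gy cells, a ratio of 1.19. PSMA1, PSMA3 and PSMA6 had ratios between 1.002 and 1.03, and PSMA4 and PSMA5 had 1.12 and 1.13. Of these 7 genes 6 lay above 1, and none was 25% higher or lower by that factor.

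PSMA8 encodes an alternative alpha subunit of the testis. Its spot median was 24.5 in 2 Gy x 4 cells and 24.2 in 0 Gy cells, close to the blank spots, and its ratio of 1.02 says little at that brightness. The other 34 genes had spots of at least 388 in 2 Gy x 4 cells and 397 in 0 Gy cells.

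The catalytic sites sit on 3 beta subunits, and their genes parted. PSMB6, of the caspase-like site, had the highest ratio of all members. Its spot median was 2952 in 2 Gy x 4 cells and 2078 in 0 Gy cells, a ratio of 1.59, and 99.8% of the 1000 probes nearest to it in signal had a lower ratio. PSMB7, of the trypsin-like site, had spots of 2536 in 2 Gy x 4 cells and 2118 in 0 Gy cells, a ratio of 1.32. PSMB5, of the chymotrypsin-like site and the main target of bortezomib, had 1932 in 2 Gy x 4 cells and 2134 in 0 Gy cells, and its ratio of 0.991 was the fifth lowest. The probes for PSMB6 and PSMB7 lie in column 5 of the chip and that for PSMB5 in column 30.

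The beta subunits without a catalytic site had a median ratio of 1.07. PSMB2 was the lowest, with 637 in 2 Gy x 4 cells and 753 in 0 Gy cells, a ratio of 0.934. PSMB1, PSMB3 and PSMB4 had ratios of 1.12, 1.12 and 1.03. Over all 15 core genes the median ratio was 1.03, 12 lay above 1, and PSMB6 and PSMB7 were the only core genes at least 25% higher.

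The base of the regulatory particle holds a ring of 6 ATPases that unfold the substrate and thread it into the core. Of their genes, 5 had a higher normalized signal in 2 Gy x 4 cells, with a median ratio of 1.23. PSMC2 was the highest, with a spot median of 2293 in 2 Gy x 4 cells and 1841 in 0 Gy cells and a ratio of 1.37. PSMC1 and PSMC3 had ratios of 1.26 and 1.27, PSMC4 of 1.20 and PSMC5 of 1.16. PSMC6 went the other way. It had 423 in 2 Gy x 4 cells and 545 in 0 Gy cells, and a ratio of 0.868, although its protein sits in the same ring.

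PSMD1 and PSMD2 encode the large scaffold proteins of the base, and PSMD4 encodes a receptor for ubiquitin chains. PSMD2 had the lowest ratio of all members. Its spot median was 718 in 2 Gy x 4 cells and 950.0 in 0 Gy cells, a ratio of 0.841. PSMD1 and PSMD4 had ratios of 1.12 and 1.07, so none of these genes was 25% higher or lower by that factor.

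All 8 lid genes had a ratio above 1, with a median of 1.27. PSMD3, a structural subunit of the lid, had a spot median of 1474 in 2 Gy x 4 cells and 1037 in 0 Gy cells, a ratio of 1.57, and 99.8% of the 1000 probes nearest in signal had a lower ratio. PSMD12 had 1258 in 2 Gy x 4 cells and 938 in 0 Gy cells, a ratio of 1.45 that was above that of 99.0% of its 1000 nearest probes. PSMD8 had 3696 in 2 Gy x 4 cells and 3129 in 0 Gy cells, a ratio of 1.36. PSMD11, whose protein bridges lid, base and core, had a ratio of 1.31, and PSMD7 had 1.23. PSMD14, the deubiquitinase that cuts chains off the substrate, had 1102 in 2 Gy x 4 cells and 1128 in 0 Gy cells, and a ratio of 1.08. PSMD13 and PSMD6 had ratios of 1.12 and 1.02.

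PSMD5, PSMD9 and PSMD10 encode chaperones that help the base to assemble and leave the finished particle. PSMD5 had a spot median of 527 in 2 Gy x 4 cells and 427 in 0 Gy cells, a ratio of 1.32. PSMD10, also called gankyrin, had a ratio of 1.23, and PSMD9 of 1.03, so all 3 lay above 1 as in the lid. With these 3 genes the regulatory particle had a median ratio of 1.22, and 18 of its 20 genes lay above 1, all but PSMC6 and PSMD2. Without them the median was 1.20.

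Since these genes are often described as transcribed together, the 250 bases before the transcription start were read for 30 of the members, from RefSeq sequences of build GRCh38.p14, with 50 bases after the start. The antioxidant response core TGACNNNGC, where NFE2L1 and NFE2L2 bind with small MAF proteins, was searched on both strands together with CCAAT, the box of NF-Y, and GGGCGG, the GC box of SP factors. The 2 lid genes with the highest ratios are shown beside PSMD2, which had the lowest, each 5′ to 3′ on the strand of the gene and up to the base before the start, with the letters of any match in capitals.
PSMD3 (chr17:39980557-39980806, + strand): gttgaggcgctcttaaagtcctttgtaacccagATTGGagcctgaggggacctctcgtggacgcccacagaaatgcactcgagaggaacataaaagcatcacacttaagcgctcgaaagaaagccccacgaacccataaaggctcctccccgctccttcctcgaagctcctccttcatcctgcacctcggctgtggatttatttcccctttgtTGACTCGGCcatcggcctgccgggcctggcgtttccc
PSMD12 (chr17:67366578-67366827, - strand): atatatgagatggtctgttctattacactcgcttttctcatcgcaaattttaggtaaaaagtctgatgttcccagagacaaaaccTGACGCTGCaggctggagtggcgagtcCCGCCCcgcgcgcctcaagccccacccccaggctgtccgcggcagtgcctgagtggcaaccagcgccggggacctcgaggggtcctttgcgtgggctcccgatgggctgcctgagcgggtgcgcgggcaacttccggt
PSMD2 (chr3:184298991-184299240, + strand): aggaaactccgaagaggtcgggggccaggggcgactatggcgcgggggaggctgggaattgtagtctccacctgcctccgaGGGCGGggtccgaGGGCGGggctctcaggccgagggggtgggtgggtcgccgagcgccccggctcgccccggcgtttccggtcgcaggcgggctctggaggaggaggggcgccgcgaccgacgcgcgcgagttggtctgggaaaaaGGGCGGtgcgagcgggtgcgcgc

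TGACNNNGC lies 37 bases before the start of PSMD3, with another match 33 bases after it, and 165 bases before the start of PSMD12. It was not in either window of PSMD2, which has 2 annotated starts, and the window shown holds 3 GC boxes. The 30 proteasome genes have 36 promoters in the table. Not among them are PSMA7, PSMB1, PSMB6 and PSMB7 of the core and PSMD4 of the regulatory particle. The counts by particle below thus leave out PSMB6 and PSMB7, the only core genes at least 25% higher. TGACNNNGC was in 9 of these 36 windows (25%), against 13.3% of all 35116, each of a different gene, 2 of the core and 7 of the regulatory particle. The 9 genes were PSMA4, PSMB3, PSMC4, PSMC5, PSMD1, PSMD3, PSMD5, PSMD9 and PSMD12. Their ratios ran from 1.03 for PSMD9 to 1.57 for PSMD3, so genes with and without the motif overlapped. In PSMC4 and PSMD1 the only match lay after the start. PSMC2, PSMD8 and PSMD11, with ratios of 1.37, 1.36 and 1.31, had no match. CCAAT was in 16 of the 36 windows (44.4%), against 34.6% of all promoters, and the GC box in 24 of the 36 (66.7%), against 44.95%. A match describes the letters of the window and was not set against binding of any factor.

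The value table deposited with the arrays, a processed version of the same spots, gave nearly the same order. Set against the spots, it equals the spot median less the average blank spot (over the middle 90% of them), scaled to an array median of 25. With the dim PSMA8 left out, the value table matched this for the members within 0.0216% for 2 Gy x 4 and 0.00119% for 0 Gy. In it PSMB6 had 1634.5 in 2 Gy x 4 cells and 992 in 0 Gy cells, a ratio of 1.65. PSMD3 had 812 in 2 Gy x 4 cells and 492 in 0 Gy cells, also a ratio of 1.65. PSMD12 had 692 in 2 Gy x 4 cells and 444 in 0 Gy cells, a ratio of 1.56. These 3 of 35 genes were at least 1.5-fold higher, against 4.45% of the 18187 genes with a value on both arrays, and none was 1.5-fold lower, against 7.02%. Those shares take in dim genes, unlike nearly all members, and were not counted over the brighter genes alone. They also take in the last 26 columns, which hold no member. The median ratio was 1.08 in the core and 1.29 in the regulatory particle, and over the brighter genes of the chip it was 1.08 as well.

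**Figure D2:**
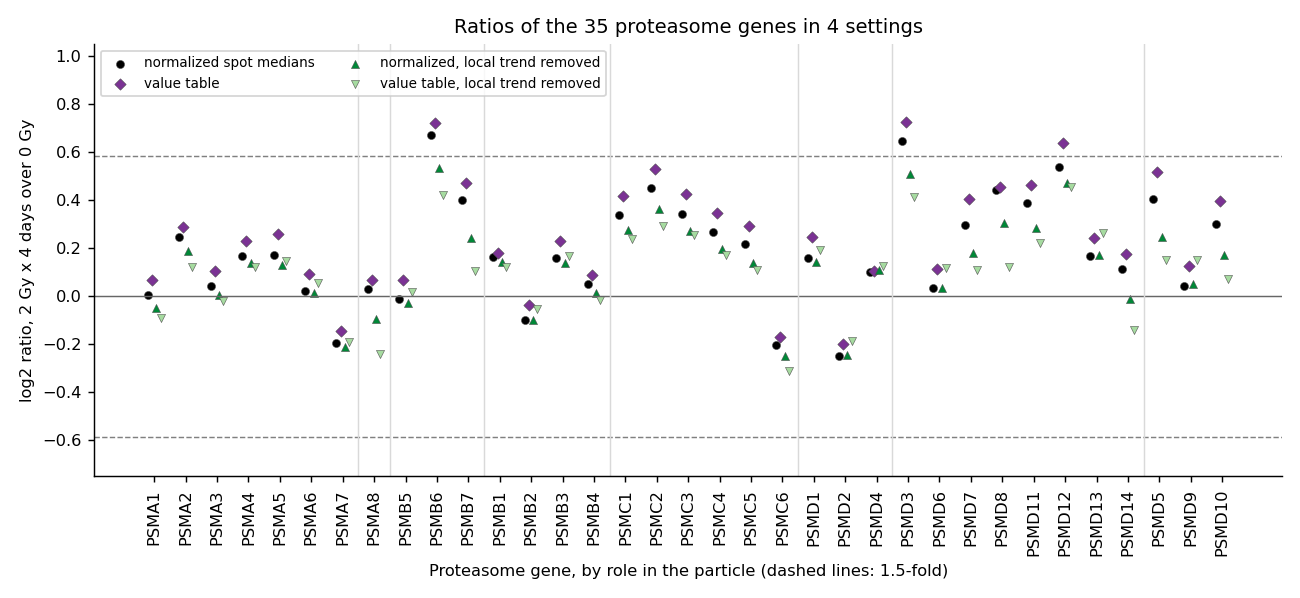
log2 ratio of 2 Gy x 4 over 0 Gy for each proteasome gene in normalized spot medians, in the value table, and in both after removal of the local trend of neighbouring probes (1 array per condition, no error bars). Dashed lines mark 1.5-fold, which PSMB6, PSMD3 and PSMD12 pass in the value table and no gene passes once the trend is taken off.

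The place of the probes on the chip moved with these ratios. The chip has 104 columns and 24 blocks of 11 rows, and the proteasome probes are not spread evenly over it. Columns 3 to 7 hold 17 of them, 3 of the core and 14 of the regulatory particle. Columns 13 to 43 hold 15, of which 11 are of the core, and column 68 holds 3. None lies in the last 26 columns, where detected probes of other genes had a median ratio of 0.936 and the brighter ones 0.880. The median ratio of the members was 1.27 in columns 3 to 7, 1.03 in columns 13 to 43 and 1.12 in column 68. All 10 genes that were at least 25% higher lie in columns 3 to 7.

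Other probes also differed between these columns. With spots over 300, they had a median ratio of 1.13 in columns 3 to 7, 1.08 in columns 13 to 43 and 0.997 in columns 64 to 72. With all detected probes the medians were 1.07, 1.03 and 1.003 in the same order of columns. The median of the proteasome genes was thus above that of other bright probes in columns 3 to 7 and, with 3 genes, in column 68, and below it in columns 13 to 43.

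**Figure D3:**
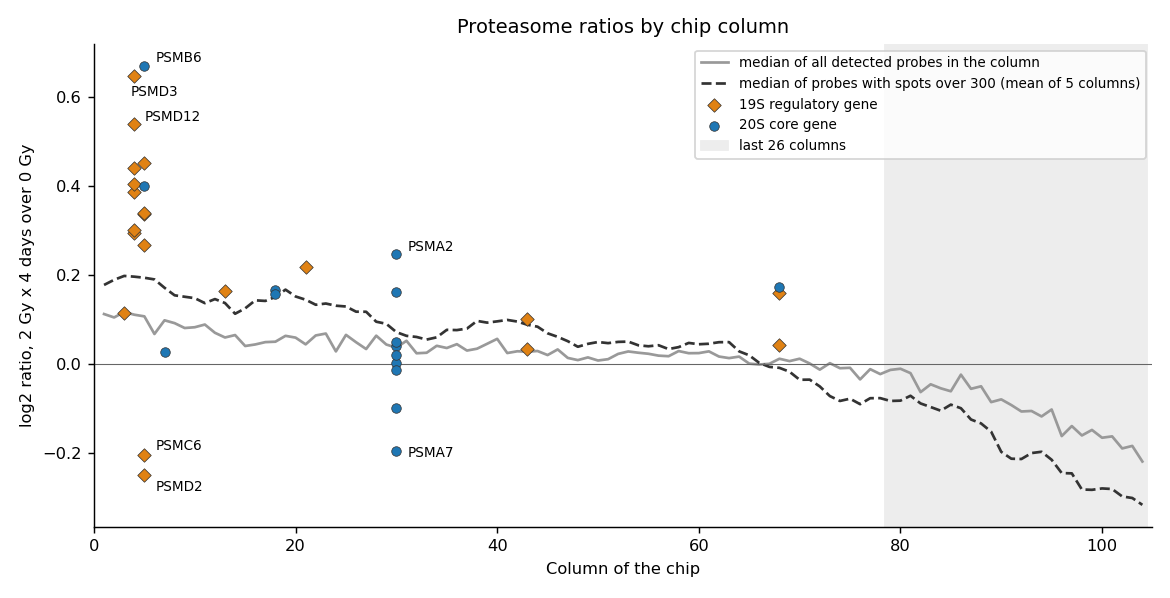
log2 ratio of 2 Gy x 4 over 0 Gy of each proteasome gene against the column of its probe, with genes of the 19S regulatory particle as orange diamonds and of the 20S core as blue circles. The grey line is the median of all detected probes in a column and the dashed line that of probes with spots over 300, smoothed over 5 columns, and both decline toward the last 26 columns (shaded), which hold none of the 35 genes.

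The gap between the particles differed between the columns. Over all columns the median log2 ratio was 0.28 in the regulatory particle and 0.05 in the core, a gap of 0.23. Without the dim PSMA8 the core median was 0.10 and the gap 0.18. Within columns 3 to 7 the gap ran the other way, -0.20 on the log2 scale, between 14 regulatory genes and the 2 core genes PSMB6 and PSMB7 (PSMA8 left out). That direction turned with the local background subtracted, to 1.08, where both core genes lay below 1. Within columns 13 to 43 it was 0.09, between 4 regulatory and 11 core genes. The higher ratios of the regulatory particle and its crowding into columns 3 to 7 cannot be told apart with these arrays.

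The exceptions of columns 3 to 7 also had a place of their own. PSMC6 and PSMD2 are printed in column 5 in blocks 22 and 24, at the far end of the chip from PSMB6 and PSMD3 in block 2. The 14 members in blocks 2 to 20 of these columns, PSMA8 left out, all had ratios above 1, with a median of 1.31. Other bright probes of columns 1 to 8 had a median ratio of 1.16 in blocks 1 to 21 and 0.952 in blocks 22 to 24. Their median log2 ratio was 0.03 in block 22, that of PSMC6, and -0.19 in block 24, that of PSMD2. PSMC6 at 0.868 lay below each of its 6 bright close neighbours (within 2 rows and 3 columns), which ran from 0.917 to 1.07. PSMD2 at 0.841 lay within the 3 bright spots near it, 0.840 to 0.993.

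**Figure D4:**
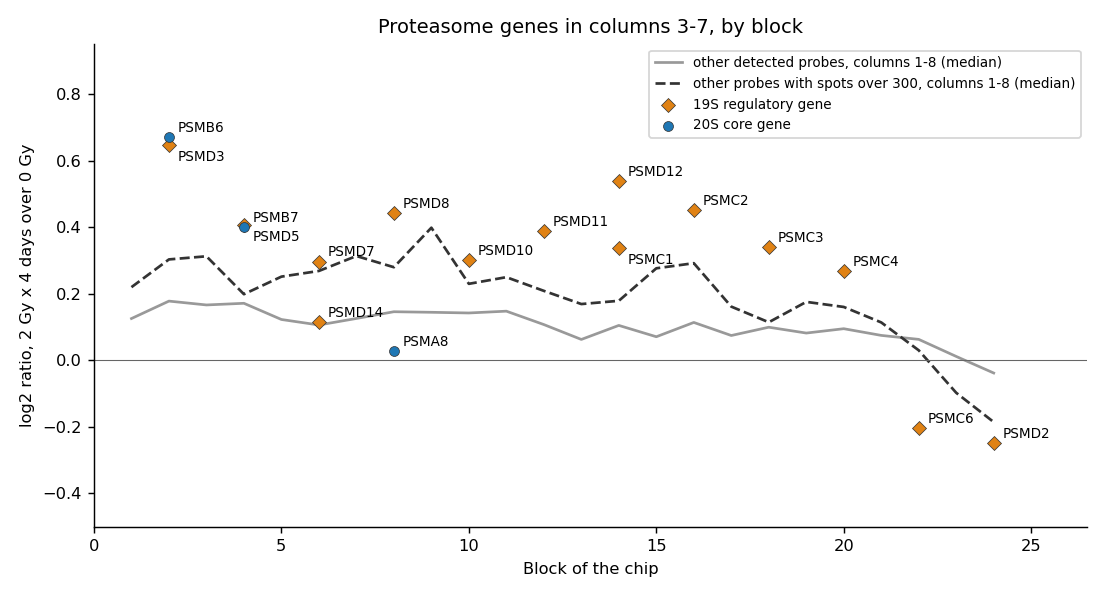
log2 ratio of 2 Gy x 4 over 0 Gy of the 17 proteasome genes in columns 3 to 7 against the block of the chip (1 to 24), with the medians of other detected probes (grey) and of other probes with spots over 300 (dashed) in columns 1 to 8. PSMC6 lies in block 22, where the median of other bright probes was 0.03, and PSMD2 in block 24, where it was -0.19.

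PSMB6 and PSMD3, the genes past 1.5-fold, are adjacent spots, in columns 5 and 4 of the same row of block 2. Their bright close neighbours that are not proteasome probes had ratios between 1.03 and 1.17, 6 spots for PSMB6 and 5 for PSMD3, so both stood above all of them. Around both spots the local background was higher in 2 Gy x 4 cells. Around PSMB6 it was 2550 on the 2 Gy x 4 array and 938 on the 0 Gy array, and around PSMD3 it was 1432 on the 2 Gy x 4 array and 536 on the 0 Gy array. In 2 Gy x 4 cells these values came close to the brightness of the spots themselves. With the local background subtracted first, the ratio was 0.455 for PSMB6 and 0.260 for PSMD3, below 1. PSMD12, in block 14, had a lower local background, 381 in 2 Gy x 4 cells and 133 in 0 Gy cells, and a ratio of 1.23 by that route. Its 9 bright close neighbours lay between 1.02 and 1.24, all below its own 1.45. PSMD14 had a local background of 1207 in 2 Gy x 4 cells, above its own spot, and 547 in 0 Gy cells, and its ratio after subtraction was 0.120. PSMD4, with a local background of 1285 in 2 Gy x 4 cells and 2272 in 0 Gy cells, had 2.17, the highest by that route. The part of the local background in these ratios was not tested.

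The local trend, as the median log2 ratio of the probes detected on both arrays in a window of 11 rows and 8 columns to each side, was then taken off each gene. PSMB6 had a ratio of 1.45 after this step, PSMD3 of 1.42, PSMD12 of 1.39 and PSMC2 of 1.29, and no member stayed at 1.5-fold, where 0.205% of all detected genes were higher and 0.426% lower. PSMD2 and PSMC6 stayed the lowest, at 0.845 and 0.841. The median was 1.01 in the core, with 10 of 15 above 1, and 1.13 in the regulatory particle, with 17 of 20 above 1. Over the brighter genes of the chip it was 1.01 in this setting. In the value table the same step gave 1.34 for PSMB6, 1.33 for PSMD3 and 1.37 for PSMD12. The medians were then 1.04 for the core and 1.11 for the regulatory particle, and 1.04 over the brighter genes of the chip. The step takes the trend from probes of all levels, which was weaker than the trend of bright probes. With bright neighbours only, within 22 rows and 8 columns, the medians were 0.997 in the core, with 7 of 15 above 1, and 1.10 in the regulatory particle, with 15 of 20 above 1. PSMB6, PSMD3 and PSMD12 then had 1.35, 1.33 and 1.28, the only members still at least 25% higher. The share of all genes that were 25% higher in this setting was not counted.

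Genes that work with the constitutive subunits were read for comparison. Of 9 genes of the inducible proteasome and its activators, 7 had ratios above 1, with a median of 1.09 and none at 1.5-fold. PSME3, a nuclear activator, was the highest, with spots of 121 in 2 Gy x 4 cells and 79.2 in 0 Gy cells and a ratio of 1.46, or 1.87 in the value table, and its probe lies in column 4. PSME1, an activator subunit induced by interferon, had 1.30, and PSMB11 of the thymus and the inhibitor PSMF1 had 0.933 and 0.991. With the local trend taken off the normalized values, PSME3 had 1.31, PSME1 1.14, PSMB11 0.942 and PSMF1 0.970. The median of the list was then 1.09. In the value table with the trend off, PSME3 had 1.45 and PSME1 1.06. The probes of PSMB9, PSMB10 and PSME2 and a probe of PSMB8 also lie in columns 3 to 7.

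Of 12 assembly chaperones and associated factors, 6 lay above 1 and 6 below, with a median of 0.982 and none at 1.5-fold. The ubiquitin ligase UBE3C and the small lid protein SEM1 were the highest at 1.16 and 1.14, and the deubiquitinase UCHL5 and the chaperone PSMG3 the lowest at 0.722 and 0.766. The probes of UCHL5 and PSMG3 lie in columns 91 and 103, among the last 26, where 7 of the 16 probes of this list lie. With the local trend taken off the normalized values, UCHL5 had 0.824 and PSMG3 0.890, both still below 1. In the value table with the trend off they had 1.01 and 1.18, above 1. UBE3C, with its probe in column 3, had 1.07 and SEM1 had 1.12 with the trend taken off the normalized values.

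Of 14 genes for ubiquitin, its activating enzymes and delivery to the proteasome, 6 lay above 1 and 8 below, with a median of 0.963. Among the 16 probes of this list, 6 lie in the last 26 columns. With the local trend taken off the normalized values the median was 0.971. UFD1 and UBB were the highest at 1.11 and 1.10, where UBB is the mean of a bright and a dim probe. The bright one had spots of 6361 in 2 Gy x 4 cells and 6350 in 0 Gy cells, a ratio of 1.17. It lies in column 101 and had 1.36 with the local trend taken off and 1.73 in the value table with it off. The dim one had 23.1 in 2 Gy x 4 cells and 21.5 in 0 Gy cells, a ratio of 1.04. NPLOC4, the partner of UFD1 on the VCP segregase, had spots of 319 in 2 Gy x 4 cells and 607 in 0 Gy cells, a ratio of 0.601 (0.625 with the local trend taken off). DDI2, a protease that activates NFE2L1, had 52.3 in 2 Gy x 4 cells and 86.3 in 0 Gy cells, a ratio of 0.781 (0.854 with the trend off, 0.605 in the value table), with its probe in column 92. NPLOC4, which was lower, was the only reported gene of these related lists at 1.5-fold in the normalized spot medians, while PSME3, NPLOC4 and DDI2 were past it in the value table.

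Of 10 transcription factor genes tied to proteasome genes, 4 lay above 1 and 6 below, with a median of 0.959. SP1 and STAT3 were the highest at 1.13 and 1.07, and NFYB, a subunit of NF-Y, and NFE2L2 the lowest at 0.770 and 0.913. The probes of SP1 and STAT3 lie in columns 22 and 3. With the local trend taken off the normalized values, SP1 had 1.02 and STAT3 had 0.978, below 1. NFYB and NFE2L2 then had 0.776 and 0.956, both still below 1. In the value table with the trend off, SP1 had 1.002, STAT3 0.909, NFYB 0.788 and NFE2L2 1.04. NFE2L1 had a ratio of 0.968 as the mean of 2 probes that differed. The brighter probe had spots of 494 in 2 Gy x 4 cells and 507 in 0 Gy cells, a ratio of 1.08, and the dimmer one 35 in 2 Gy x 4 cells and 50.5 in 0 Gy cells, a ratio of 0.872.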

How the data were processed

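The authors deposited 1 scanner file per array and a value table of the same arrays. The scanner values are median spot intensity and local background intensity, per the file headers, neither subtracted nor scaled. The steps behind the deposited intensity table are not given in the sources used here. Spot medians were corrected with limma 3.58.1 in R 4.3.3 (normexp, offset 50) and quantile-normalized over 24456 gene probes. Other steps used Python 3.11.15, numpy 2.4.6 and pandas 2.3.3. A probe was detected above the 95th percentile of 2678 usable blank spots on at least 1 array. The platform annotation, brought up to date with the RefSeq table, named 32 members and the scanner file the other 3 (PSMC5, PSMD7 and PSMD13). Every member is reported, with spot values for members at 1.5-fold and the 5 highest and 5 lowest ratios, and of each related list the 2 highest and 2 lowest. PSMD14, PSMB7, PSMA2, PSMD5, PSMA8 and NFE2L1 were added after their values were seen. Some genes of the related lists are not reported here. Members and lists were chosen with earlier results of these data known. The steps were tested on simulated data with a trend across columns only, the same at all brightness levels. The trend on these arrays also differed by block and was stronger in bright probes, which that test did not cover. Alternatives covered the background step, scaling, the value table, place on the chip, the filter on dim probes and the fold. The number of arrays limits the precision.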

Additional observations from a re-analysis of the deposited data

How the results depend on the processing

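The count of proteasome genes at least 1.5-fold higher in 2 Gy x 4 cells was 2, and it was 0 with the local trend taken off, 0 in the value table with the trend taken off and 0 with the trend of bright neighbours taken off, an alternative chosen after seeing the data. It was 10 with a threshold of 25% higher. The count at least 1.5-fold lower was 0, and it was 4 with the local background subtracted, where PSMB6 had a ratio of 0.455 and PSMD3 of 0.260. By that route the higher count was 3, made up of PSMD4 at 2.174, PSMA5 at 1.785 and PSMD8 at 1.501. Neither PSMB6 nor PSMD3 was among them. The share of all genes at 1.5-fold by that route was not counted. The median log2 ratio of the core, 0.05, was 0.13 with offset 0, where the dim PSMA8 was the middle gene, and -0.0045 with the bright-neighbour trend taken off. That of the regulatory particle, 0.28, was 0.37 in the value table, 0.18 with the local trend taken off, 0.15 in the value table with the trend off and 0.13 with the bright-neighbour trend off. The other alternatives, including median scaling, the 75th percentile, a loess curve and no background correction, moved these medians and the 1.5-fold counts by less than the spread of the log2 ratios over all genes, or by at most 1.5 times. Of the 35 genes, 13 changed sides of 1 with the local background subtracted, 8 with the bright-neighbour trend, 6 in the value table with the trend off, 3 each with median scaling, the 75th percentile, the loess curve and the local trend, and 1 in the value table. The causes were not tested. No paired analysis was possible because each condition has 1 array and the labels give no replicate numbers.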
